A study of Saccharomyces cerevisiae with 6 samples.

Results

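Nearly all protein-coding genes of chromosome XIV lying outside the pathways set aside had lower transcript levels in the *kcs1*-S537A,S646A strain than in WT, by a similar amount. The members are the protein-coding genes that the deposited tables place on chromosome XIV, less the ribosomal, RNA polymerase, proteasome, autophagy, peroxisome, ribosome biogenesis and further metabolic, chaperone and signalling genes that were set aside by name, 70 in all. They number 368 of the 7126 genes in the tables. The chromosome was chosen by the fall of its genes in this same contrast, so the members' mutant-to-WT values are a description, and counts of members past a test's threshold only describe how complete the fall was. The question pursued was which members escape that common fall. Of the 368, 330 passed the filter on low counts. The 38 that did not pass include 25 dubious reading frames and 19 genes with no count in any sample, and none exceeded 14 counts in a sample.

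Both strains are diploids of the filamentous Σ1278b background of *Saccharomyces cerevisiae* in which both chromosomal copies of *KCS1* are deleted. The *kcs1*-S537A,S646A strain carries, on the low-copy plasmid pRS416 and under its own promoter, the allele with alanine in place of serine at a pair of the sites that the kinase Snf1 phosphorylates. The WT strain carries wild-type *KCS1* on the same plasmid. The 3 samples per strain came from 3 single colonies each, grown for about 20 h in low-nitrogen medium. Because all colonies of an allele derive from 1 strain, the allele and any other difference between the strains cannot be told apart, and the DNA content of the cultures was not analysed here. In RNA from whole cultures, fewer cells with a transcript and less of it per cell cannot be told apart either.

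Kcs1 makes inositol pyrophosphates, small signalling molecules that act on the phosphate response, on chromatin through the Rpd3L histone deacetylase and on the general stress response. Genes of a yeast chromosome are for the most part regulated one by one, by factors that bind upstream of each gene, so neighbours need not share a pathway. Msn2 and Msn4, the general stress factors, bind the stress response element, whose core is AGGGG, and are held back when nutrients allow fast growth.

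The median log2 fold change of the 330 members was -0.53, a ratio of 0.694, with an interquartile range of -0.67 to -0.41. Relative to the mean of the WT samples, the members' median was -0.53, -0.56 and -0.53 (log2) in *kcs1*-S537A,S646A replicates 1, 2 and 3, against 0.0014, -0.0079 and 0.0053 in WT replicates 1, 2 and 3. The 3 mutant colonies thus differed from each other by far less than each differed from WT. The 69 chromosome XIV coding genes of the pathways set aside had a median of -0.51, and the 5578 coding genes of the other chromosomes had a median of 0.03. The spread around the median was alike in size, with an interquartile width of 0.256 for the members and 0.250 for coding genes of the other chromosomes. Between -0.7 and -0.4 lay 184 members. In all, 316 members had a log2 fold change below 0 and 14 were above 0, where 53.2% of all 6083 genes tested were above 0. In edgeR's quasi-likelihood test 196 members passed the adjusted threshold of 0.05 as lower, beside 4.67% of all genes tested, and 0 as higher, beside 0.986%. All 3 mutant values lay below all 3 WT values in 280 members, beside 14.8% of all genes, and above them in 0 members, beside 11.8%. These counts repeat the contrast that chose the chromosome, and nothing further is read from them. The lower calls numbered 65, 60 and 83 without WT replicates 1, 2 and 3, against 152 to 208 without a mutant replicate.

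**Figure D1:**
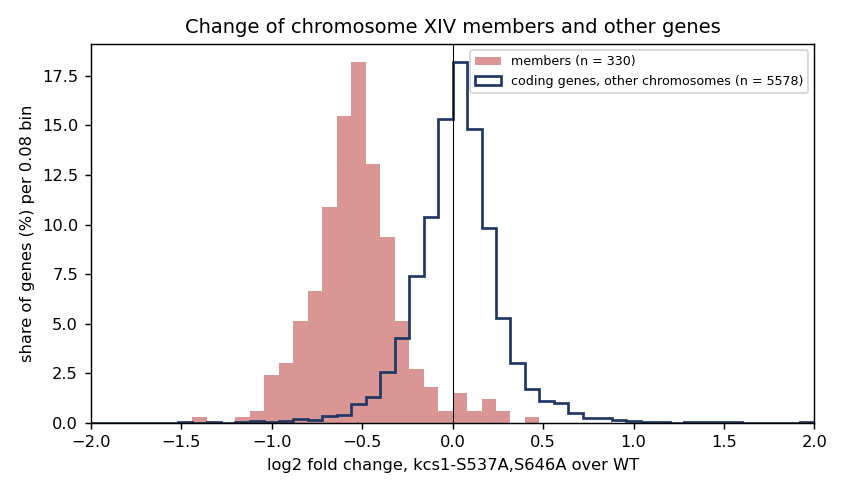
Share of genes (percent, vertical axis) in bins of the log2 fold change of *kcs1*-S537A,S646A over WT (horizontal axis) for the 330 members (filled) and the 5578 coding genes of the other chromosomes (outline; the few values past 2 in either direction are drawn in the end bins). The members form a peak of about the same width around -0.53, and 14 of them lie above 0 (8 when scaled to library totals).

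*KCS1* itself, on chromosome IV, gave 272.2, 796.7 and 347.4 CPM (counts scaled to a common library size) in *kcs1*-S537A,S646A and 366.7, 309.1 and 340.6 CPM in WT. The allele differs from *KCS1* only in its codons, so this level does not check the labels. Between 17950923 and 22701020 counts were assigned to genes per sample. Mutant replicate 1 stood apart in that the genes of chromosome VI, which holds none of the members, had a median of -0.96 (log2) there, against 0.04 and 0.03 in mutant replicates 2 and 3. The part of this in any result below was not tested. Values without mutant replicate 1 are given below for the highest and lowest members that they move most.

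Upstream sequences of 7 members are shown first, because their letters follow one of the patterns described below. The first 3 belong to members near or above 0 and the last 4 to members that fell most. Each runs 5′ to 3′ over the 300 bases before the coding start, on the gene's strand, from the RefSeq R64 genome of strain S288C, not of Σ1278b. Capitals mark AGGGG or its reverse complement CCCCT.
FKH2 (chrXIV:498290-498589, minus strand): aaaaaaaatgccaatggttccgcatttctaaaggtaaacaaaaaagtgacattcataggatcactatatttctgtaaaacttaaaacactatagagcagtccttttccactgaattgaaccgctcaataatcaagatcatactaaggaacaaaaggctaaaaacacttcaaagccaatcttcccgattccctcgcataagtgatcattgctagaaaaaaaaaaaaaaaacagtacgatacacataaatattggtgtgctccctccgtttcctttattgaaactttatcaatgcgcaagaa
SOL1 (chrXIV:690021-690320, plus strand): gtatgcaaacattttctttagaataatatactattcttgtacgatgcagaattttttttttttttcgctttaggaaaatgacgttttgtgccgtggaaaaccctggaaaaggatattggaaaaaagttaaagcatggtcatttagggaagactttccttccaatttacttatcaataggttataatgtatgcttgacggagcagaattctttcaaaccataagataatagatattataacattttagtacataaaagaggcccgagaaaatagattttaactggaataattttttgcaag
CIT1 (chrXIV:631062-631361, minus strand): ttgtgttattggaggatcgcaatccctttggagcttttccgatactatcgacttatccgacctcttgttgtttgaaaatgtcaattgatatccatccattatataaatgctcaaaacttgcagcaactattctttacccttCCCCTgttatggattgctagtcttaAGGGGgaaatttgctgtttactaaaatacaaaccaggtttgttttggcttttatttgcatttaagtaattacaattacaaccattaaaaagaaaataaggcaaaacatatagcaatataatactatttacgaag
YNL134C (chrXIV:373582-373881, minus strand): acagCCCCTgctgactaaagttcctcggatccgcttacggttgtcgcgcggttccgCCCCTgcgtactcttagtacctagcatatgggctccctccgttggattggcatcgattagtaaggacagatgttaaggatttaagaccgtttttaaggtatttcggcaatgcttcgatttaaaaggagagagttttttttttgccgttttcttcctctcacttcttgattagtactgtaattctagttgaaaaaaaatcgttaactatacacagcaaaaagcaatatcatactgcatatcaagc
GOR1 (chrXIV:122171-122470, minus strand): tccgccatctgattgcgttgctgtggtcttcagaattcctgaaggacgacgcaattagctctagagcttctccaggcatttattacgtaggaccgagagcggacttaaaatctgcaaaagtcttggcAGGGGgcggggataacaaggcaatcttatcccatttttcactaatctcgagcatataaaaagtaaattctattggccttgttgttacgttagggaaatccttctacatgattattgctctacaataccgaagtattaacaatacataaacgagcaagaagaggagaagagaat
PBI2 (chrXIV:605084-605383, plus strand): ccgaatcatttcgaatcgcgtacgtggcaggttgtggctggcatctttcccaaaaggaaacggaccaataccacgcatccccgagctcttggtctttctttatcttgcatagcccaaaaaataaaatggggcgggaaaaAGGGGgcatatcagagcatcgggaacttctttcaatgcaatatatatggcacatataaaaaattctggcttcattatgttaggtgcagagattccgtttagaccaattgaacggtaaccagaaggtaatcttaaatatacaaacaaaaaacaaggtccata
SRV2 (chrXIV:366441-366740, plus strand): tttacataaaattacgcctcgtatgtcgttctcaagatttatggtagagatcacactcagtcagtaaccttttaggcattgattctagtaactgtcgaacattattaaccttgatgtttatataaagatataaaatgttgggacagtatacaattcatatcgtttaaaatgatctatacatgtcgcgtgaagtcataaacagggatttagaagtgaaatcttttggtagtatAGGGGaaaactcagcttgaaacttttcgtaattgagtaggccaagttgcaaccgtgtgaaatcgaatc

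Of the 14 members above 0, only 6 averaged at least 10 CPM, out of 288 members at that level, and 8 were among the 42 weaker ones. The 6 were *DBP2*, *CIT1*, *SOL1*, *PDR17*, *FKH2* and YNL284C-B. They encode proteins of unrelated function. Scaled to library totals in place of TMM, 8 of the 330 members were above 0, and *CIT1*, *SOL1*, *PDR17*, *FKH2* and YNL284C-B lay just below it, between -0.045 and -0.00088. On chromosome XIV of the files, with the coordinates of R64, *PDR17* spans 145563 to 146615, *DBP2* 413639 to 416281, *FKH2* 495701 to 498289, *CIT1* 629622 to 631061 next to the centromere and *SOL1* 690321 to 691286, all as coding genes.

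*FKH2* (YNL068C) encodes a forkhead transcription factor of the cell cycle that drives the mitotic gene cluster. Its level was 124.0, 100.6 and 115.9 CPM in *kcs1*-S537A,S646A, against 114.6, 105.2 and 110.6 CPM in WT. The groups overlap, with mutant replicate 2 the lowest of the 6 samples and mutant replicate 1 the highest, and the log2 fold change was 0.04 (standard error 0.09). *SOL1* (YNR034W) encodes a protein linked to tRNA export and related to the 6-phosphogluconolactonases. It had 33.0, 31.3 and 30.9 CPM in *kcs1*-S537A,S646A and 28.0, 32.4 and 31.6 CPM in WT. The mutant colonies lay close to one another and inside or just above the WT range, giving 0.05 (standard error 0.09). *PDR17* (YNL264C), a phosphatidylinositol transfer protein, had 70.4, 54.5 and 63.0 CPM in *kcs1*-S537A,S646A and 56.3, 63.5 and 62.2 CPM in WT. Here too the mutant samples spanned the WT samples on both sides, at 0.05 (standard error 0.11). Without mutant replicate 1 the values were -0.03 for *FKH2*, 0.02 for *SOL1* and -0.05 for *PDR17*, so all 3 stayed close to 0 and far from -0.53.

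*DBP2* (YNL112W), an abundant DEAD-box RNA helicase with an unusually long intron, had 2482, 1572 and 1941 CPM in *kcs1*-S537A,S646A and 1711, 1754 and 1851 CPM in WT. Its mutant values lay on both sides of the WT range, and replicate 1 was the high one. The log2 fold change was 0.17 (standard error 0.17), and -0.02 without mutant replicate 1. *CIT1* (YNR001C), the mitochondrial citrate synthase, had 490.7, 240.3 and 194.9 CPM in *kcs1*-S537A,S646A and 287.6, 328.1 and 259.4 CPM in WT. Mutant replicate 1 exceeded every WT sample and the other 2 mutant samples lay below every WT sample. Its value of 0.08 (standard error 0.31) is thus a mean of unlike samples, and it was -0.43 without mutant replicate 1. YNL284C-B, the coding sequence of a Ty retrotransposon, had 13.9, 14.3 and 15.1 CPM in *kcs1*-S537A,S646A and 14.5, 15.4 and 12.9 CPM in WT. The groups overlap at 0.02 (standard error 0.11), and the same sequence stands elsewhere in the genome, as described further on.

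Just below 0 came *NRK1* and YNL024C. *NRK1* (YNL129W), a nicotinamide riboside kinase of NAD+ salvage, had 106.0, 115.0 and 163.9 CPM in *kcs1*-S537A,S646A and 134.1, 134.7 and 126.1 CPM in WT. Replicates 1 and 2 of the mutant were below all WT samples and replicate 3 was above them, for a log2 fold change of -0.04 (standard error 0.16), and 0.08 without mutant replicate 1. YNL024C, a putative methyltransferase, had 49.4, 39.8 and 37.6 CPM in *kcs1*-S537A,S646A and 46.0, 41.6 and 48.7 CPM in WT, at -0.11 (standard error 0.12), and -0.23 without mutant replicate 1.

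The other members among the 14 highest with at least 10 CPM ran from *CLA4* at -0.13 (standard error 0.08) to *SUN4* at -0.18 (standard error 0.20). *CLA4*, a PAK-family kinase of bud growth and septin assembly, had 68.5, 61.4 and 61.2 CPM in *kcs1*-S537A,S646A and 74.1, 68.8 and 65.8 CPM in WT, an overlap by 1 mutant sample. *ZRG17*, part of a zinc transporter of the endoplasmic reticulum, had 72.7, 65.1 and 68.4 CPM in *kcs1*-S537A,S646A and 75.9, 77.5 and 79.1 CPM in WT. It was lower in all 3 mutant samples, at -0.17 (standard error 0.07), which is a smaller fall than the median and not an absence of one. *BIO4*, dethiobiotin synthetase of biotin synthesis, was at -0.15, YNR068C at -0.14 and YNR034W-A at -0.16. In these 3 genes the mutant samples overlapped the WT samples. Without mutant replicate 1, *BIO4* was at -0.32 and YNR034W-A at -0.29, while *SUN4* was at 0.0039.

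Among the 288 members with at least 10 CPM, 271 were below the WT mean in each mutant sample and 1 was above it in each. The 1 was *SOL1*. The share of all genes that lie on 1 side of the WT mean in this way was not counted, so nothing is read from these counts. A fit that first removes the median shift of chromosome XIV per sample asks which members depart from their chromosome. As a description, 2 members were past its adjusted threshold of 0.05, *FKH2* and *SOL1*, with log2 departures of 0.58 and 0.58, beside 0.312% of all genes. This count is not stable. It became 0 with DESeq2 size factors, with the shift taken from the other coding genes of chromosome XIV, or without mutant replicate 1, mutant replicate 3 or any 1 of the WT replicates, and 10 without mutant replicate 2.

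**Figure D2:**
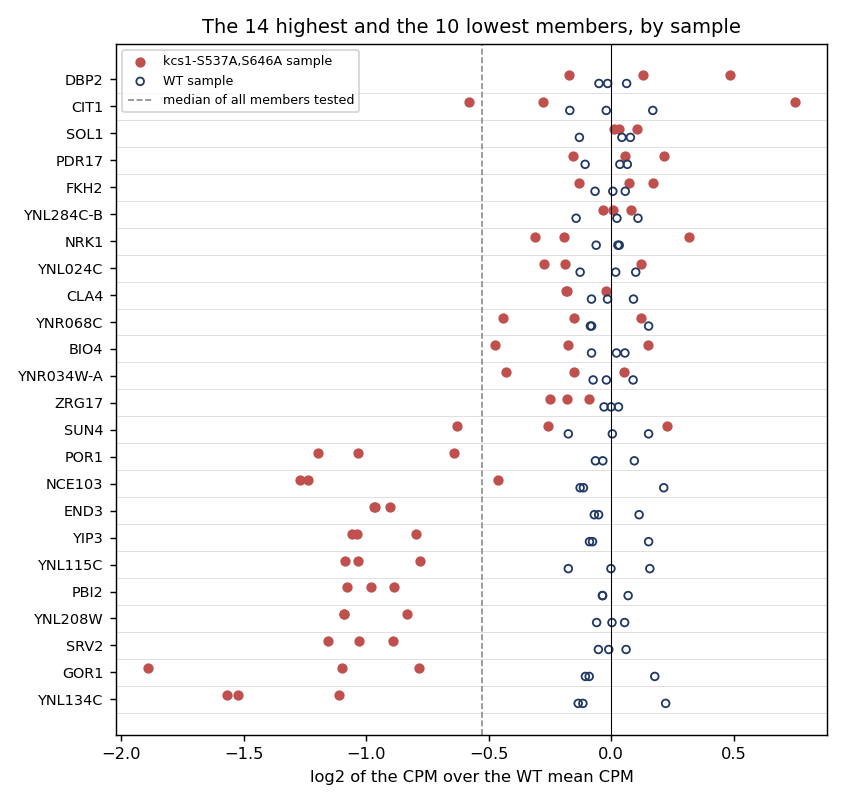
Log2 of each sample's CPM over the WT mean CPM (horizontal axis) for the 14 highest and the 10 lowest members that average at least 10 CPM. Filled points are *kcs1*-S537A,S646A samples, drawn above the open WT samples of the same gene, and the dashed line is the median of all members, -0.53. The mutant and WT samples of the first 6 genes overlap or interleave, with the mutant samples of *CIT1* on both sides of WT, and the mutant samples of the last 10 genes lie below all WT samples.

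Some reads from near-identical sequences may match more than 1 place. Each member's gene sequence was therefore searched in the R64 genome for copies of at least 95% identity over at least 50% of the gene. Among the members tested 10 had one, and their median was -0.07, against -0.53 for the 320 without. They supply 5 of the 14 members above 0. *HXT17*, a hexose transporter gene near the right end, was the highest member at 0.43 (standard error 0.35), with 1.25, 1.69 and 1.92 CPM in *kcs1*-S537A,S646A and 0.764, 1.06 and 1.76 CPM in WT, and its copy lies on chromosome V. The groups overlap at these low counts. YNR073C also has its copy on chromosome V, at 0.01 (standard error 0.41), and the Ty gene YNL284C-B has one on chromosome II. The copies of YNL033W and YNL034W, at 0.25 and 0.18, are YNL019C and YNL018C, which lie on chromosome XIV as well. YNL019C was at -0.32 and YNL018C at -0.30, so these copies lay below 0. *THI12*, a thiamine biosynthesis gene with a copy on chromosome VI, did fall, by 0.61 on the log2 scale. It averaged only 9.2 CPM, and chromosome VI was itself low in mutant replicate 1, at a median of -0.96. How reads were shared between the copies was not tested. *DBP2*, *CIT1*, *SOL1*, *PDR17* and *FKH2* have no such copy, and without the 10 members 9 of 320 were above 0.

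The 42 members under 10 CPM had the same median, -0.52, and a wider interquartile range, 0.593 against 0.240 for the 288 stronger members. *MFA2*, one of the weak members above 0, which encodes the mating pheromone a-factor, had 3.71, 2.80 and 2.98 CPM in *kcs1*-S537A,S646A and 2.46, 2.54 and 3.42 CPM in WT. It is a haploid-specific gene, off in diploids as a rule, and was low in all 6 samples. Along the chromosome the median of each 50 kb window lay between -0.61 and -0.46 in all windows but the last. That window, at the right end, held 9 members with a median of -0.19, and its medians were -0.35, -0.35 and -0.08 in mutant replicates 1, 2 and 3. It contains *HXT17*, YNR073C and YNR075C-A, which have near-identical copies, as well as YNR068C and *BSC5*. The left arm (267 members) had a median of -0.53 and the right arm (63 members) of -0.50.

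**Figure D3:**
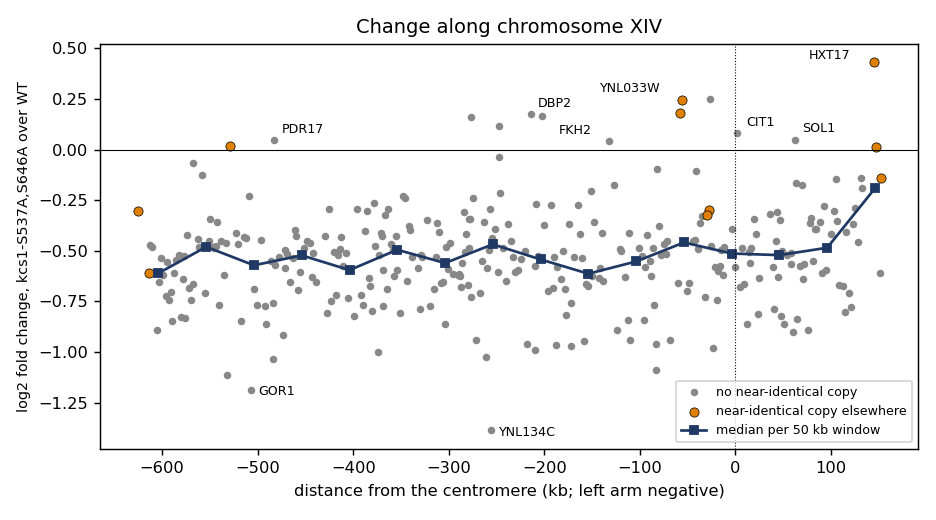
Log2 fold change of *kcs1*-S537A,S646A over WT (vertical axis) of each member against its distance from the centromere (kb, left arm negative). Squares are medians per 50 kb window, and orange points are the 10 members with a near-identical copy elsewhere. The medians stay between -0.61 and -0.46 up to the last window on the right, at -0.19, and members above 0 are scattered along both arms.

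Level, length and base composition bore little relation to the size of the fall. Across the 330 members the log2 fold change had a Pearson correlation of -0.06 with the mean log2 CPM, 0.03 with gene length, 0.06 with GC content and -0.04 with the distance from the nearer chromosome end. Genes are not independent replicates, and these values are a description. Adjacent members resembled each other little, with a correlation of 0.04 over 263 neighbouring pairs, where the other chromosomes had values between -0.01 and 0.21. Over the 288 members with at least 10 CPM, log2 differences from the WT mean correlated at 0.32 between mutant replicates 1 and 2, 0.50 between 1 and 3 and 0.33 between 2 and 3. All 3 sets of differences use the same WT mean, which by itself gives positive values, so nothing is read from them.

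Among members with at least 10 CPM, 11 had log2 fold changes below -0.9, and the 10 lowest ran from -1.39 to -0.94. YNL134C, an NADH-dependent aldehyde reductase, had 185.6, 246.9 and 180.1 CPM in *kcs1*-S537A,S646A and 486.2, 492.7 and 622.7 CPM in WT. Every mutant sample was far below every WT sample, at -1.39 (standard error 0.16). *GOR1*, a glyoxylate reductase, had 85.8, 148.1 and 184.5 CPM in *kcs1*-S537A,S646A and 359.2, 295.2 and 298.4 CPM in WT, at -1.19 (standard error 0.25). Its lowest sample was mutant replicate 1, without which it was at -0.94. *SRV2*, the cyclase-associated protein that links adenylate cyclase to actin, had 102.0, 112.3 and 93.6 CPM in *kcs1*-S537A,S646A and 201.0, 217.4 and 207.0 CPM in WT. The mutant colonies agreed closely with one another, and the difference came to -1.02 (standard error 0.09). *PBI2*, an inhibitor of vacuolar proteinase B, had 163.5, 174.9 and 152.8 CPM in *kcs1*-S537A,S646A and 315.0, 338.7 and 315.0 CPM in WT, at -0.98 (standard error 0.09). *END3*, a protein of actin patches and endocytosis, had 47.9, 50.1 and 48.1 CPM in *kcs1*-S537A,S646A and 90.5, 101.5 and 89.4 CPM in WT, at -0.94 (standard error 0.08). The groups did not overlap in these genes.

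*NCE103*, carbonic anhydrase, had 697.9, 408.0 and 398.0 CPM in *kcs1*-S537A,S646A and 888.3, 1115 and 880.0 CPM in WT. Mutant replicate 1 was the highest of the mutant samples and still below WT, and the log2 fold change was -0.94 (standard error 0.23), and -1.26 without mutant replicate 1. *POR1*, the mitochondrial porin, was at -0.94 (standard error 0.15), YNL208W at -0.999 (standard error 0.11), YNL115C at -0.96 (standard error 0.12) and *YIP3*, a membrane protein of vesicle traffic, at -0.96 (standard error 0.11). *YIP3* overlaps the dubious reading frame YNL043C on the other strand, and the strand setting of the counting is not named, so reads of the pair cannot be told apart.

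What most of these genes share is the letters AGGGG upstream. Of 14 short motifs searched on both strands in the 300 bases before the coding start, AGGGG, the core bound by Msn2 and Msn4, was in 22.2% of the 5978 coding genes with a promoter read and in 9 of the 10 lowest members, all but *YIP3*. It was in 3 of the 14 highest members and in 1 of the 12 members above 0 that have a promoter read, *CIT1*, whose sequence above holds it once on each strand. YNL134C has it in 2 places, both on the other strand, and *FKH2* and *SOL1* have none. The 61 members with the motif had a median log2 fold change of -0.66, against -0.50 for the 253 without it. With 1 match the median was -0.61 (50 members) and with 2 or more it was -0.74 (11 members). Members with the motif were lower than those without it in each mutant colony, and their median was -0.60, -0.61 and -0.67 (log2) in mutant replicates 1, 2 and 3, where that of members without it was -0.51, -0.53 and -0.50. In mutant replicate 3 the members with 2 or more matches, at -0.65, were not below those with 1, at -0.68. Below -0.9 lay 3 of the 253 members without a match, 7 of the 50 with 1 match and 3 of the 11 with 2 or more. The 10 lowest members are among these genes, so the counts largely repeat the 9 of 10 given above. On the other chromosomes, around a median near 0, the counts below -0.9 were 5 of 4127, 4 of 1035 and 1 of 188, in the same order.

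On the other chromosomes the same letters went with a smaller difference around a median near 0. There the median was -0.01 for 1223 genes with the motif and 0.04 for 4127 without, a difference of -0.05, where the members' difference was -0.16. With 2 or more matches the median there was -0.08 (188 genes). The motif is short and was picked out of the 14 after the values were known, the members are not independent, and a match is a description of letters and not of bound factor. GTAAACA, bound by the forkhead factors Fkh1 and Fkh2, was in 7.03% of coding genes and in 4 of the 14 highest members, *FKH2* and *CIT1* among them, and the 26 members with it had a median of -0.40, against -0.53 without it. On the other chromosomes the medians with and without GTAAACA were 0.04 and 0.02. GTAAACA was not alone among the 14 highest members. TTACTAA, bound by Yap1, and TGAAACA, bound by Ste12, were each in 3 of them, beside 7.81% and 7.23% of coding genes. AGGGG was not the only motif with a lower median among members. CGCGAAA, bound by SBF, had -0.67 in the 9 members with it and -0.52 in the 305 without. For ACGCGT, bound by MBF, the medians were -0.61 (16 members) and -0.52. For TTACTAA, bound by Yap1, they were -0.61 (26 members) and -0.52. These motifs were in 0, 0 and 1 of the 10 lowest members, in that order. CCAAT, bound by the respiratory Hap complex, was in 41.8% of coding genes and in 7 of the 10 lowest members. It was also in 6 of the 12 members above 0 with a promoter read. The members' medians with and without it were close, at -0.54 and -0.51.

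**Figure D4:**
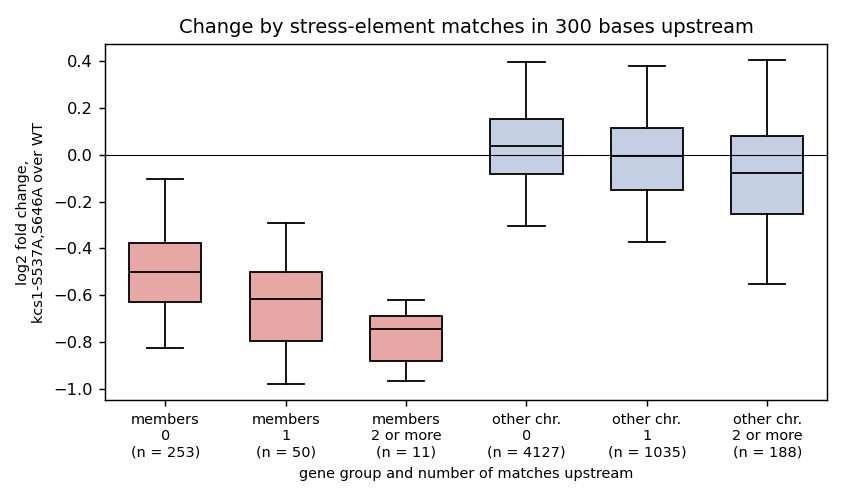
Log2 fold change of *kcs1*-S537A,S646A over WT (vertical axis) by the number of AGGGG or CCCCT matches in the 300 bases upstream, for members (left 3 boxes) and coding genes of the other chromosomes (right 3 boxes). Boxes give the quartiles and median and whiskers the 5th and 95th percentiles. The medians were -0.50, -0.61 and -0.74 for members with 0, 1 and 2 or more matches, and 0.04, -0.0045 and -0.08 for the other genes.

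Grouped by function, every list of members was centred well below 0, so none of the 16 lists escaped as a whole. Genes were matched to the lists by name. *MAN2*, *RCM1*, *MIC27*, *RCF2* and *MRX7* were listed but not found under these names. Any of them that the deposited data hold under another name is left out of the list counts and medians. Each list is given by its median and its members, beside the median of -0.53 over all 330 members and 0.01 over all genes tested. Every mutant sample was below every WT sample in 84.8% of the members tested and in 14.8% of all genes tested. Lists in which all genes show this are therefore not read as traits of their functions. In DNA replication, repair and chromatin, all 21 genes were below WT in every comparison of samples, with a median of -0.58. *ORC5*, a subunit of the origin recognition complex, was the lowest at -0.91 and *YAF9*, a histone acetylation reader, the highest at -0.27. All 21 genes of the secretory pathway and endosomes also had every mutant sample below every WT sample, with a median of -0.62 and *KEX2*, the proprotein-processing protease of the Golgi, the highest at -0.29. The same held for all 23 genes of mRNA processing, export and decay (median -0.51), for the 6 of glycosylation and GPI anchors (median -0.64) and for the 9 protein kinases and phosphatases (median -0.53). *SSU72*, a phosphatase of RNA polymerase II, was at -0.82 and *MPP6*, a cofactor of the nuclear exosome, at -0.31. *ALG12*, a mannosyltransferase, was at -0.86 and *GPI15*, of GPI anchor synthesis, at -0.45. *MCK1*, a GSK-3 kinase, was at -0.68 and *YCK2*, a casein kinase of the plasma membrane, at -0.31.

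Other lists held both falls and members near or above 0. In actin, polarity and cytokinesis the median of 13 genes was -0.65, with *SRV2* at -1.02 and *CLA4* at -0.13. The 13 transcription factors and Mediator subunits had a median of -0.51, where *STB1*, a regulator of the start of the cell cycle, was at -0.83 and *FKH2* at 0.04. Ribosome assembly outside the prefixes set aside (14 genes, median -0.52) ran from *IMP4*, of the small-subunit processome, at -0.63 to *DBP2* at 0.17. Of tRNA processing and modification (8 genes, median -0.48), *SMM1*, a dihydrouridine synthase, was at -0.64 and *SOL1* at 0.05. Of the mitochondrial proteins (16 tested, median -0.56), *POR1* was at -0.94 and *CIT1* at 0.08.

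Vitamin and cofactor synthesis had the highest median, -0.35 over 7 genes tested. All mutant samples were below all WT samples in 4 of the 7, beside 84.8% of all members tested. *ABZ1*, of p-aminobenzoate synthesis, was the lowest at -0.90, followed by *THI12* at -0.61, and *BIO4* and *NRK1* were at -0.15 and -0.04. The 13 membrane transporters tested had a median of -0.42, with *AQR1*, a multidrug and amino acid exporter, at -0.89 (-1.16 without mutant replicate 1), *ZRG17* at -0.17 and, under 10 CPM, *HXT17* above 0 at 0.43. Mating genes had the lowest median, -0.77 over 5 genes. *AGA1*, the anchor of a-agglutinin, was at -0.89 with 19.8, 15.3 and 15.7 CPM in *kcs1*-S537A,S646A and 30.9, 33.3 and 29.8 CPM in WT, and *FAR11*, of the pheromone arrest, was at -0.48. The weakly expressed *MFA2*, at 0.16, was the 1 mating gene above 0. Meiosis and sporulation (5 genes, median -0.49) lay between *SPO1* at -0.60 and *SPS18* at -0.43, and *MER1*, a meiotic splicing activator, was at -0.48. Of the subtelomeric families, 4 genes matched by name were tested, with a median of -0.54. Among them were *COS10* at -0.61 and *AAD14*, of the aryl-alcohol dehydrogenases, at -0.47. Lists of so few genes differ from the overall median by less than their own range.

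**Figure D5:**
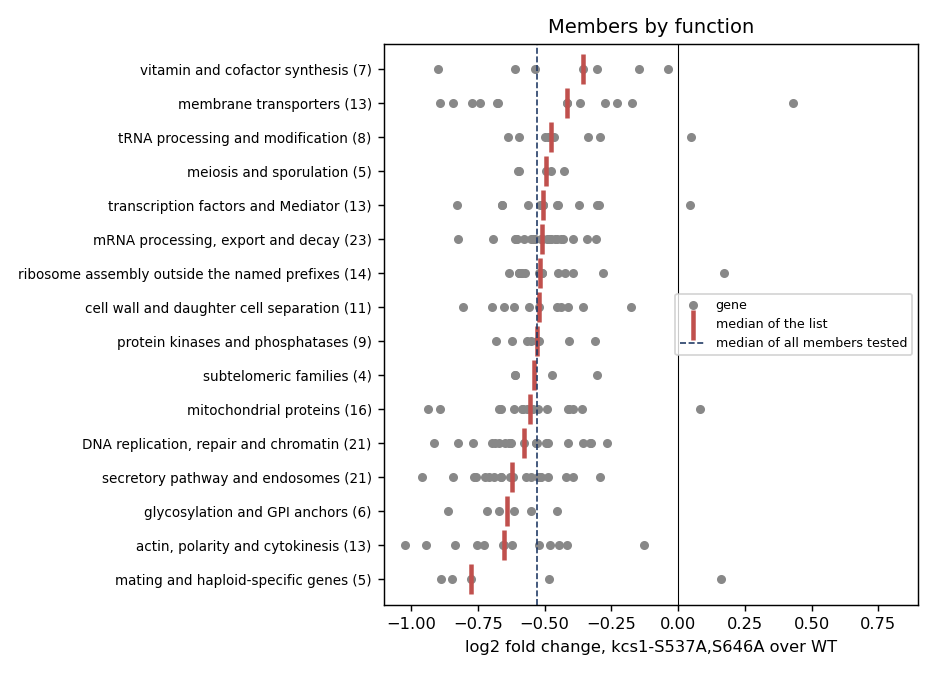
Log2 fold change of *kcs1*-S537A,S646A over WT (horizontal axis) of each gene tested in 16 functional lists, with the number of genes in brackets. Grey points are genes, red bars the list medians and the dashed line the median of all members, -0.53. The medians run from -0.35 for vitamin and cofactor synthesis to -0.77 for mating genes. Among genes matched to the lists by name, 6 lists hold 1 gene above 0 each.

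Some daughter-cell separation genes differed between the mutant colonies. In the cell wall list (11 genes, median -0.52), *CHS1*, the chitin synthase that repairs the septum, was the lowest at -0.81 and *SUN4*, a septation protein, the highest at -0.18. *SUN4* had 77.7, 140.9 and 100.4 CPM in *kcs1*-S537A,S646A and 133.6, 120.6 and 106.5 CPM in WT. *EGT2* and *DSE4*, both glucanase-type proteins of cell separation and singled out after their values were seen, had 45.9, 108.1 and 94.6 CPM and 83.5, 242.7 and 213.7 CPM in *kcs1*-S537A,S646A, against 133.1, 138.4 and 120.1 CPM and 269.3, 240.2 and 230.7 CPM in WT. In all 3 genes mutant replicate 1 was the lowest sample. In the other mutant colonies *SUN4* and *DSE4* lay near or inside the WT range, and *EGT2* lay below it. Mutant replicate 1 is the colony in which chromosome VI genes were low and *CIT1* and *DBP2* were high. The part of that difference in these values was not tested.

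*RPD3* and *PHO23*, the catalytic and a further subunit of the Rpd3L deacetylase, are also members and were picked for that role. *RPD3* had 71.7, 83.2 and 82.5 CPM in *kcs1*-S537A,S646A and 109.8, 109.8 and 111.7 CPM in WT, at -0.48 (standard error 0.08). *PHO23* had 24.1, 23.4 and 27.2 CPM in *kcs1*-S537A,S646A and 36.2, 39.5 and 35.9 CPM in WT, at -0.58 (standard error 0.09). Both fell with their chromosome, near its median.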

How the data were processed

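RNA was profiled in 3 kcs1-S537A,S646A and 3 WT samples by poly(A) RNA sequencing. Per the labels and the study's methods, reads were mapped with HISAT2 2.0.5 and counted per gene with featureCounts 1.5.0-p3. The authors deposited these counts without normalization. They also deposited FPKM values, counts divided by gene length and by a depth per sample, which served only as an alternative. A file of strain means was not used. Neither the build nor the strandedness of the counting is given in the sources used here. Of 327 members with an R64 entry, 326 have identical coordinates there.

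The count table was fitted with edgeR 4.0.16 under R 4.3.3 (filterByExpr with a minimum count of 10, TMM, glmQLFit and glmQLFTest, 2-sided) over all 6083 genes that passed, adjusted by Benjamini-Hochberg and called under 0.05. CPM values use TMM-scaled library sizes. Standard errors were derived from each gene's log2 fold change and its F statistic (change over root F). The biological coefficient of variation was 0.129, and at 17950923 to 22701020 counts per sample the spread between colonies sets the precision for most genes. Copies were sought with blastn 2.17.0. The procedure was tested on simulated data. Sequences are RefSeq R64, and promoters were read for members with identical coordinates.

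Named genes are, among members averaging at least 10 CPM, the 14 highest and 10 lowest log2 fold changes, the nearest to 0, the extremes of each functional list, and any above WT in all comparisons, of which there were 0. Of members under 10 CPM above 0, at most 3 were to be named (HXT17, YNL033W, MFA2). YNL034W, YNR073C, YNL018C, YNL019C, YNR075C-A, THI12, BSC5, SPS18, YNL043C, EGT2, DSE4, RPD3 and PHO23 fall outside this rule. The members, lists, motifs and alternatives were chosen with earlier results of these data known. Alternatives were other normalizations, filters and tests (DESeq2 1.42.0, limma 3.58.1 voom, and limma-trend on log2(FPKM + 1)), a replicate block and each sample left out.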

Additional observations from a re-analysis of the deposited data

How the results depend on the processing

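The fall of the members kept its direction under every alternative run, and no alternative called a member higher, where edgeR called 0. The median moved to -0.59 with library totals, which shift all genes by -0.06, and to -0.55 with TMM factors from the other chromosomes only, and it ran from -0.55 to -0.52 when each sample was left out. The 196 lower calls became 243 with DESeq2 and ranged from 60 to 208 with 1 sample left out. They were 65, 60 and 83 without WT replicates 1, 2 and 3, and 208, 203 and 152 without mutant replicates 1, 2 and 3. Each of these fits had 1 sample fewer, and the cause of the difference between them was not tested. Of the 14 members above 0, the count was 8 with library totals and 11 to 16 with 1 sample left out. In alternatives chosen after seeing the data it was 9 without members that have near-identical copies and 6 among members of at least 10 CPM.

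The 2 departures from the chromosome's shift became 0 with DESeq2 size factors, 0 with the shift of the other coding genes and 0 with the replicate block, and 0 to 10 with 1 sample left out. Signs near 0 reversed. With library totals CIT1 was at -0.00088, SOL1 at -0.015, PDR17 at -0.025, FKH2 at -0.026 and YNL284C-B at -0.045, and YNL284C-B was at -0.00091 with TMM factors from the other chromosomes. CIT1 was at -0.016 with limma-voom, -0.035 with the replicate block and -0.029 on log2(FPKM + 1). With 1 sample left out the ranges were -0.43 to 0.32 for CIT1, -0.02 to 0.32 for DBP2, -0.012 to 0.089 for SOL1, -0.050 to 0.13 for PDR17, -0.03 to 0.12 for FKH2, -0.049 to 0.076 for YNL284C-B, -0.25 to 0.079 for NRK1 and -0.44 to 0.0039 for SUN4. The cause of these reversals was not tested. Of the other values of named genes under alternatives, 607 kept direction and call, 41 lost the call and 7 gained it.

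Replicate numbers name colonies, and the main fit did not pair the samples. Deviations of log2 CPM from the strain means correlated at -0.13, 0.02 and 0.34 between same-numbered samples. Between differently numbered samples the values ran from -0.26 to 0.26. The deviations within a strain sum to 0 for each gene, so these values are tied together and do not decide whether samples were paired. With the replicate block 173 members were called lower, 0 higher, 12 were above 0 and the median was -0.53.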
